A study of Mus musculus with 14 samples.

Results

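Prdx1 and Abcc1 are a pair of redox defence genes, described here in mouse embryonic fibroblasts (MEFs, connective tissue cells grown from embryos) across cysteamine treatment, CTNS knockdown, CTNS rescue, cysteine starvation and full amino acid starvation. Both were chosen by name, as transcripts of known NRF2 targets, with earlier results of these data known. They are 2 of the 1399 transcripts counted in every library. Prdx1 was represented by the transcript ENSMUST00000135573 (2294 nucleotides, 6 exons, chromosome 4, plus strand). Abcc1 was represented by ENSMUST00000100167 (6792 nucleotides, 31 exons, chromosome 16, plus strand). Each is protein coding and was the longest annotated transcript of its gene, out of 6 annotated for Prdx1 and 12 for Abcc1. Of the 1385 genes with a symbol, 0 had more than 1 listed transcript, and 85.8% of these transcripts were the longest of their gene. Whether a value counts the listed transcript alone or the whole gene is not given in the labels.

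NRF2 is a transcription factor that the adaptor KEAP1 marks for degradation. Electrophiles and oxidants modify cysteines of KEAP1, NRF2 then accumulates, pairs with a small MAF protein and binds antioxidant response elements near its target genes. Prdx1 encodes peroxiredoxin 1, a cytosolic enzyme that reduces hydrogen peroxide with a reactive cysteine and is recycled by thioredoxin. Abcc1 encodes the multidrug resistance-associated protein MRP1, an ATP-driven pump of the plasma membrane that exports glutathione conjugates, oxidised glutathione and drugs.

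The study concerns lysosomal cystine, which the transporter cystinosin (encoded by Ctns) carries out of the lysosome, and sensitivity to ferroptosis, a death driven by iron and lipid peroxidation. Polyadenylated RNA was sequenced in 14 libraries that formed 7 groups of 2, all of MEFs with a wild-type genotype. One experiment of 8 libraries held cells given cysteamine (a thiol drug that clears cystine from lysosomes), cells transfected with the hairpin sh-CTNS (CTNS knockdown), cells transfected with sh-CTNS together with a CTNS plasmid (CTNS rescue), and cells with no treatment (NT2). The other, of 6 libraries, held cells starved of cysteine, cells starved of all amino acids, and cells with no treatment (NT). The pairing of NT with the starvations and of NT2 with the rest was read from the group names and is an assumption. The labels give no dose, time or starvation medium, and NT2 carried neither a hairpin nor a transfection, so in the comparisons with NT2 the hairpin, the transfection and the loss of cystinosin cannot be told apart. Ctns was not analysed here, so the knockdown label was not checked against its level. Whether a group's libraries stem from separate cultures is not in the labels, so the p-values rest on a spread between libraries that may be technical.

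Totals over the 1399 transcripts ran from 64530 to 165747 counts in the 8 libraries with cysteamine, knockdown, rescue and NT2, and from 25697 to 51224 in the 6 libraries of the starvation experiment. The libraries of a group differed by 1.56 to 1.99 times counting noise (chi-square per degree of freedom) in the 8, and by 4.15 to 7.38 times in the 6. The 3 transcripts with most counts, Luc7l2, Pigl and Pglyrp3, held 7.85% ± 0.183 of the total with cysteamine, 15.9% ± 0.0954 in the knockdown, 19.8% ± 1.73 in the rescue and 3.39% ± 0.140 in NT2 (SD, n = 2 each). Their share was 26.8% ± 8.91 under cysteine starvation, 41.9% ± 1.04 under full amino acid starvation and 45.3% ± 13.1 in NT. Of 12 fibroblast markers 7 were measured, and their summed level was 19235 to 19904 CPM (counts scaled to a common library size) with cysteamine, 10174 to 10244 in the knockdown, 17700 to 17734 in the rescue and 31271 to 34160 in NT2. The pancreatic protease gene Ctrb1, the 1 measured of 8 pancreatic markers, stood at 53.4 and 71.2 CPM with cysteamine, 249 and 347 in the knockdown, 427 and 409 in the rescue, and 11.9 and 14.5 in NT2. Of 8 muscle markers Ttn was measured, at 246 and 218 CPM with cysteamine, 459 and 411 in the knockdown, 569 and 743 in the rescue, and 99.0 and 194 in NT2. Of 8 epithelial markers Cdh1 was measured, at 26.7 and 8.90 CPM with cysteamine, 90.4 and 54.8 in the knockdown, 56.9 and 24.8 in the rescue, and 3.96 and 24.2 in NT2. Against NT2 edgeR called Ctrb1 and Ttn higher in both transfected groups and Cdh1 in the knockdown. With cysteine withheld Ctrb1 stood at 33.0 and 125, Ttn at 231 and 350.5, Cdh1 at 66.0 and 25.0 and the fibroblast sum at 29278 and 32118 CPM. With all amino acids withheld Ctrb1 stood at 613 and 1495, Ttn at 1633 and 835, Cdh1 at 613 and 176 and the fibroblast sum at 14836 and 23126 CPM. In NT Ctrb1 stood at 215 and 980, Ttn at 716 and 686, Cdh1 at 143 and 294 and the fibroblast sum at 21775 and 14989 CPM. The fibroblast markers did not all move with their sum. Against NT2, Vim and S100a4 stood above 0 with cysteamine and Postn did in the rescue, while all 7 stood below 0 in the knockdown. Of 6 immune and 4 endothelial markers 0 were measured. The part of these differences between libraries in the results on Prdx1 and Abcc1 was not tested.

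The region before the Prdx1 start is shown because it holds the letters of the antioxidant response element, which is how NRF2 is known to reach its targets. It is the plus strand of chr4:116685349-116685543 in the mouse build GRCm38.p6, from RefSeq, and ends where the listed transcript begins. Capitals mark the AP-1 motif TGACTCA first, and then GCTGAGTCA, which is TGACTCAGC read on the other strand.
Prdx1: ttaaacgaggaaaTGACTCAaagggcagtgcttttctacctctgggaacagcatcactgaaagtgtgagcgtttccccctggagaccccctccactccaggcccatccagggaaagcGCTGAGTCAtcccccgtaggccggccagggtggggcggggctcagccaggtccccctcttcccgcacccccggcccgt
The 9 letters lay 133 to 125 bases before the RefSeq start, and the first AP-1 motif 237 to 231 bases before it. The listed transcript, where the printed bases end, begins 55 bases before that RefSeq start. A second TGACTCA lies inside TGACTCAGC, since the motifs overlap. For each of the 32851 RefSeq promoters the 250 bases before the start were searched on both strands. The general element TGACNNNGC was found in 3338 of them (10.2%), TGACTCA in 1466 (4.46%) and TGACTCAGC in 128 (0.390%). The general element is thus a common string, while the 9 fixed letters of Prdx1 are rare among promoters. TGACTCAGC is a form of the general element with more letters fixed, so it had to be the rarer. The shares describe the strings and show nothing particular to Prdx1. No promoter of Abcc1 was in the table used.

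Among 1084 measured genes with a promoter in that table, 8 (0.738%) held TGACTCAGC, and the site of each is shown to let the letters next to it be compared. All are in GRCm38.p6 and are written in the direction in which the element reads TGACTCAGC, in capitals, with the genome strand of those letters given.
Prdx1, chr4:116685456-116685484, minus strand: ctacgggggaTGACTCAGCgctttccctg
Aldoa, chr7:126799456-126799484, plus strand: gcgaacatcgTGACTCAGCcggaatgtgg
C1qbp, chr11:70983116-70983144, plus strand: ggggaggcctTGACTCAGCtaccttgacc
C77080, chr4:129261433-129261461, plus strand: cttcctggatTGACTCAGCcagtcttaga
Met, chr6:17463891-17463919, minus strand: gcccggcccgTGACTCAGCcgggcaacag
Pacsin2, chr15:83448014-83448042, minus strand: ttcacaaccgTGACTCAGCcccagatata
Psap, chr10:60277598-60277626, minus strand: gggcgcagctTGACTCAGCgtcgcgcagc
Tm9sf3, chr19:41264021-41264049, plus strand: cctcttcctcTGACTCAGCcacgtcatcc
A match of letters is a description and not a bound site.

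With cysteamine both genes rose against NT2. Counts of Prdx1 were 119 and 155 in the cysteamine libraries, against 76 and 65 in the NT2 libraries. With TMM scaling (a trimmed mean of log ratios, which allows for the unequal makeup of libraries), that was 635 and 689 CPM with cysteamine and 301 and 315 CPM in NT2. Both cysteamine libraries lay above both NT2 libraries, and the groups did not overlap. The level of Prdx1 was 2.15-fold that of NT2 (95% interval 1.65 to 2.81), a log2 fold change of 1.11 ± 0.18 (SE), with an adjusted p of 0.00141 by the quasi-likelihood test of edgeR, adjusted by Benjamini-Hochberg over all 1399 transcripts.

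Abcc1 had 54 and 70 counts with cysteamine, against 33 and 21 in NT2. Its scaled level was 288 and 311 CPM with cysteamine, and 131 and 102 CPM in NT2. Here too the groups did not overlap, and the lower cysteamine library stood above the higher NT2 library. The level of the pump transcript was 2.55-fold that of NT2 (95% interval 1.74 to 3.74), a log2 fold change of 1.35 ± 0.26 with an adjusted p of 0.00365 by the same edgeR test. Of all transcripts 77, or 5.50%, were called higher in this comparison (adjusted p under 0.05), and by p Prdx1 was number 13 and Abcc1 number 27 of all 1399. The call of Abcc1 was lost without cysteamine replicate 1 (adjusted p = 0.0561), without cysteamine replicate 2 (0.0849) or without NT2 replicate 2 (0.0897), and that of Prdx1 without cysteamine replicate 2 (0.0501), within an edgeR range of 0.0411 to 0.0897 for Abcc1 and 0.0182 to 0.0501 for Prdx1 over the 4 libraries left out in turn. The limma test on log2 CPM, which called 0 transcripts in this comparison, gave an adjusted p of 0.333 for both. Over all alternatives the adjusted p ran from 9.07e-07 to 0.333 for Prdx1 and from 4.22e-05 to 0.334 for Abcc1.

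Per length of the listed transcript, the scale on which levels of different genes can be compared, Prdx1 was the more abundant of the pair. That scale takes the reads to come from the listed transcript, which the labels do not settle. It stood at 277 and 301 CPM per kilobase with cysteamine and at 131 and 137 in NT2. Abcc1 stood at 42.4 and 45.8 CPM per kilobase with cysteamine and at 19.2 and 15.0 in NT2. Ranked per length among 1385 named transcripts, Prdx1 lay above 86.1% and 87.1% of them in the cysteamine libraries, against 74.2% and 76.1% in the NT2 libraries. Abcc1 lay above 41.2% and 43.4% with cysteamine, against 21.4% and 14.9% in NT2. The peroxidase transcript was therefore among the more abundant ones in every library of this comparison, and the pump transcript was below the middle of the ranking in each.

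**Figure D1:**
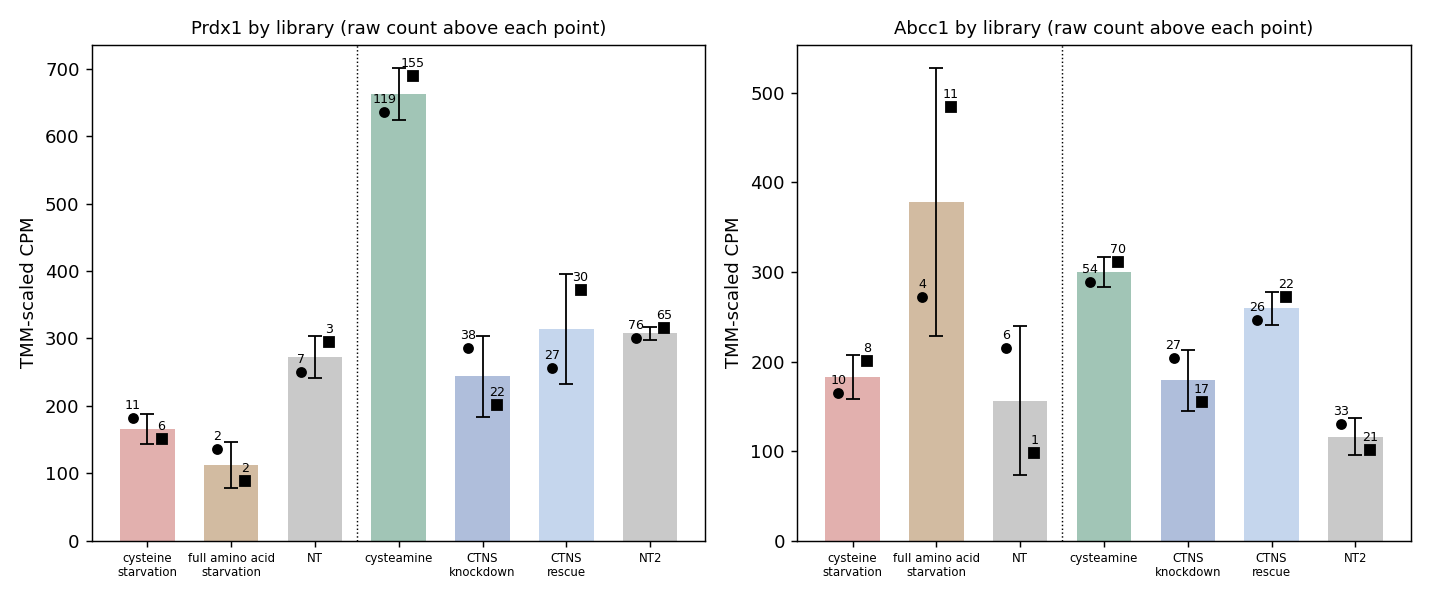
Levels of Prdx1 and Abcc1 in CPM after TMM scaling in each of the 14 libraries (points, with the raw count above each) and as group mean ± SD (bars, n = 2) for the 7 groups. The cysteamine points of Prdx1, at 635 and 689 CPM, stand above every other point of that gene, while the highest Abcc1 point is a full amino acid starvation library at 484 CPM.

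Over all 7 groups, the mean level of Prdx1 was highest with cysteamine, at 662 ± 38.4 CPM (SD, n = 2, as for all means here). The next was the rescue at 314 ± 81.8 CPM, whose range of mean ± SD did not reach that of cysteamine. NT2 at 308 ± 9.73, NT at 272 ± 30.5, the knockdown at 244 ± 60.3, cysteine starvation at 166 ± 22.2 and full amino acid starvation at 112 ± 34.1 CPM followed. From the rescue down, neighbours in this order did not differ beyond their spread. Cysteamine was thus the 1 group set apart from its neighbour in the order of Prdx1. Groups further apart could differ beyond their spread, as both starvations did from NT and NT2, on few counts.

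Abcc1 had another order of groups. Full amino acid starvation came highest at 378 ± 149 CPM, and its spread overlapped that of cysteamine at 299.8 ± 16.4 CPM. The rescue followed at 259 ± 18.4 CPM, below the spread of cysteamine. Cysteine starvation at 183 ± 24.9 CPM lay below the spread of the rescue, and from there on the knockdown at 179 ± 34.0, NT at 156 ± 82.7 and NT2 at 116 ± 20.5 CPM overlapped neighbour by neighbour. Levels set across the experiments also carry the difference between NT and NT2, which share a label and not a makeup. The lowest mean of Abcc1 was therefore in an untreated group, unlike that of Prdx1, which was in full amino acid starvation.

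The knockdown changed neither transcript past the test. Prdx1 had 38 and 22 counts in the knockdown, against 76 and 65 in NT2, and its scaled level was 286 and 201 CPM in the knockdown, against 301 and 315 CPM in NT2. Both knockdown libraries were lower, the first by little, and the fold of 0.803 had an interval of 0.576 to 1.12 (log2 fold change -0.32 ± 0.23, edgeR adjusted p = 0.300). Abcc1 had 27 and 17 counts in the knockdown, against 33 and 21 in NT2. Its scaled level was 203 and 155 CPM in the knockdown and 131 and 102 CPM in NT2, so both knockdown libraries were above both NT2 libraries. The fold was 1.54 with an interval of 0.997 to 2.38 (log2 fold change 0.62 ± 0.30, edgeR adjusted p = 0.119), where 17.6% of all transcripts were called higher and 13.2% lower. That call was made when transcripts with a mean count under 20 were left out (0.0393) or when 341 transcripts with high counts in NT relative to NT2 were left out (0.0471), over a range of 0.0393 to 0.9965 for all alternatives.

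In the rescue against NT2 Abcc1 passed the test and Prdx1 did not. Prdx1 had 27 and 30 counts in the rescue, against 76 and 65 in NT2. Its scaled level was 256 and 372 CPM in the rescue and 301 and 315 CPM in NT2, so the rescue libraries lay on either side of NT2. The fold was 1.002 with an interval of 0.717 to 1.40 (edgeR adjusted p = 0.996).

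Abcc1 rose in the rescue, with 26 and 22 counts there, against 33 and 21 in NT2. Its scaled level was 246 and 272 CPM in the rescue and 131 and 102 CPM in NT2, without overlap. The fold was 2.196 with an interval of 1.43 to 3.37 (log2 fold change 1.13 ± 0.29, edgeR adjusted p = 0.00749). This stood among 18.7% of all transcripts called higher, with 12.9% called lower. With counts scaled by the listed totals alone the split of all calls turned, to 199 higher and 259 lower, against 261 higher and 180 lower by TMM. The call of Abcc1 was then lost (log2 fold change 0.81, adjusted p = 0.0854), as it was without NT2 replicate 2 (0.0724) or rescue replicate 2 (0.0504), in a range of 0.00079 to 0.695 over all alternatives.

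The rescue against the knockdown asks what the added CTNS plasmid changed. Prdx1 stood at 256 and 372 CPM in the rescue and at 286 and 201 CPM in the knockdown, with overlapping libraries and a fold of 1.25 (interval 0.856 to 1.82, edgeR adjusted p = 0.652). Abcc1 stood at 246 and 272 CPM in the rescue and at 203 and 155 CPM in the knockdown, with a fold of 1.43 (interval 0.917 to 2.22, edgeR adjusted p = 0.519). Neither difference passed, and 9 transcripts of all, 0.643%, were called higher and 0 lower. Folds up to 1.82 for Prdx1 and 2.22 for Abcc1 lie within the intervals.

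Cysteamine clears cystine from lysosomes, while the hairpin is directed at the transporter that carries cystine out. These treatments were set against each other directly, in comparisons added after the data were seen. Prdx1 rose with cysteamine against the knockdown, by 2.68-fold (interval 1.96 to 3.68, log2 fold change 1.42 ± 0.21, edgeR adjusted p = 0.000652), where 14.7% of all transcripts were called higher and 10.1% lower. It rose with cysteamine against the rescue as well, by 2.15-fold (interval 1.56 to 2.96, log2 fold change 1.10 ± 0.22, edgeR adjusted p = 0.00162), where 14.8% were called higher and 15.6% lower. Both cysteamine libraries held more Prdx1 than any of the 4 transfected libraries, whose highest value was 372 CPM. Abcc1 with cysteamine was 1.66-fold its level in the knockdown (interval 1.11 to 2.47, edgeR adjusted p = 0.0562) and 1.16-fold that in the rescue (interval 0.785 to 1.72, edgeR adjusted p = 0.567). The first of these passed when the 8 libraries were fitted without the starvation experiment (0.0229), when the replicate number was a block (0.0365) and when transcripts with a mean count under 20 were left out (0.048), over a range of 0.0229 to 0.405. All comparisons with NT2 share its libraries, and all 3 with cysteamine share the cysteamine libraries.

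**Figure D2:**
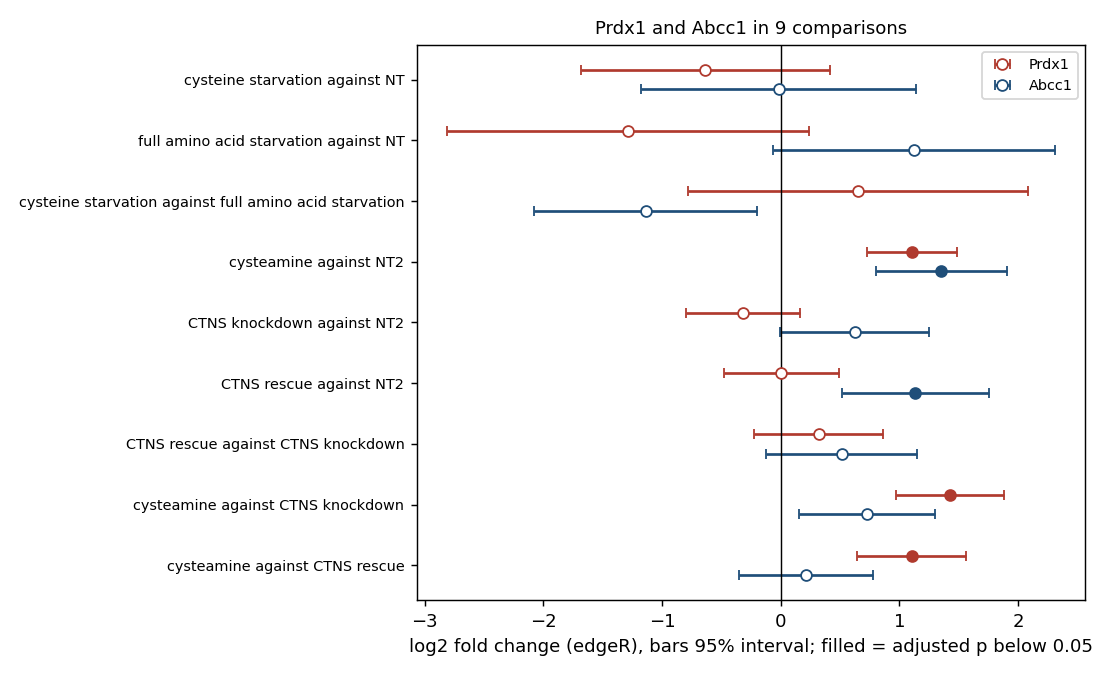
Log2 fold change of Prdx1 and Abcc1 with 95% intervals in each comparison of groups, from edgeR's fit to all 14 libraries; filled points passed an adjusted p of 0.05. With cysteamine both intervals lie above 0, from 1.65-fold for Prdx1 and from 1.74-fold for Abcc1, and in the rescue against NT2 that of Abcc1 alone does.

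The balance of the pair inside a library does not depend on how libraries are scaled, since the scaling factor cancels. The ratio of Prdx1 to Abcc1 counts was 2.20 and 2.21 in the cysteamine libraries, 1.41 and 1.29 in the knockdown, 1.04 and 1.36 in the rescue, and 2.30 and 3.10 in NT2. All 4 transfected libraries held less Prdx1 per Abcc1 than the cysteamine and NT2 libraries did. Summed over a group, the ratio was 2.21 with cysteamine and 2.61 in NT2, and cysteamine over NT2 gave 0.846 with an exact 95% interval of 0.567 to 1.25. The ratio was 1.36 in the knockdown, 0.522 times that of NT2 (interval 0.308 to 0.889), and 1.19 in the rescue, 0.455 times that of NT2 (interval 0.269 to 0.771). The interval with cysteamine thus holds 1, and those of the knockdown and the rescue lie below it. Cysteamine over the knockdown gave 1.62 (interval 1.01 to 2.58) and cysteamine over the rescue 1.86 (interval 1.17 to 2.95). The rescue over the knockdown gave 0.871 (interval 0.486 to 1.56), which holds 1. These intervals cover counting error and not the spread between libraries, and the ratio was chosen after the data were seen.

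**Figure D3:**
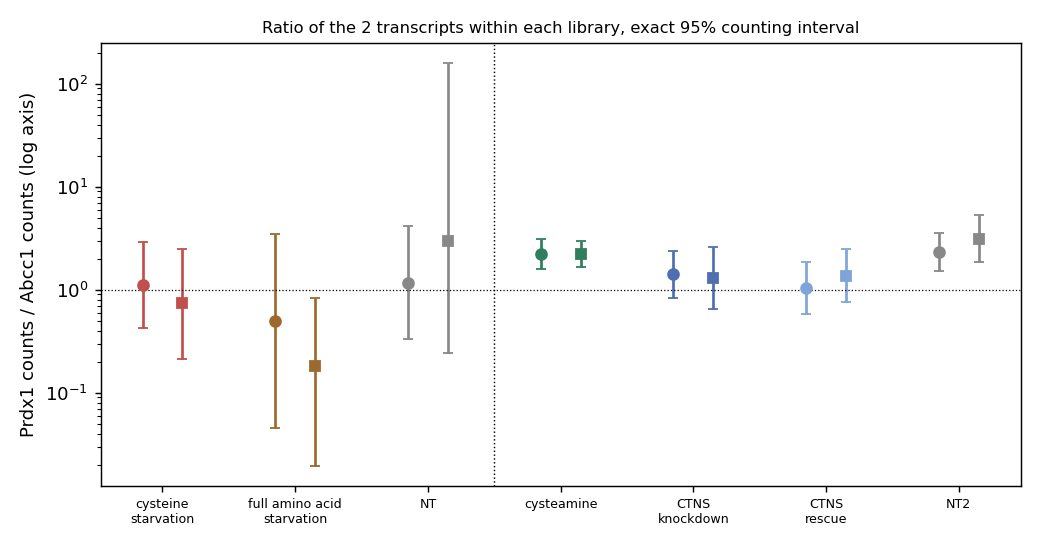
Ratio of Prdx1 to Abcc1 counts within each library (points) with its exact 95% counting interval (bars), on a log axis, for the 7 groups. The knockdown and rescue libraries lie between 1.04 and 1.41, below the cysteamine libraries at 2.20 and 2.21 and the NT2 libraries at 2.30 and 3.10.

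Starvation was read from far lower counts. Prdx1 had 11 and 6 counts with cysteine withheld and 2 and 2 with all amino acids withheld, against 7 and 3 in NT. Its scaled level was 182 and 150.2 CPM under cysteine starvation and 136 and 87.9 CPM under full amino acid starvation, against 251 and 294 CPM in NT. All 4 starved libraries lay below both NT libraries, yet on these counts neither fold passed. Cysteine starvation gave 0.644-fold (interval 0.312 to 1.33, edgeR adjusted p = 0.628). Full amino acid starvation gave 0.410-fold (interval 0.143 to 1.18, edgeR adjusted p = 0.681), and the ratio of 4 to 10 counts alone had an interval of 0.0933 to 1.41. For cysteine starvation the direction rested on the scaling: by listed totals the log2 fold change was 0.050.

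Abcc1 had 10 and 8 counts with cysteine withheld and 4 and 11 with all amino acids withheld, against 6 and 1 in NT. Its scaled level was 165 and 200.3 CPM under cysteine starvation, 272 and 484 CPM under full amino acid starvation, and 215 and 98.0 CPM in NT. The NT libraries lay on either side of cysteine starvation and below both libraries of full amino acid starvation. Cysteine starvation gave 0.988-fold (interval 0.442 to 2.21, edgeR adjusted p = 0.999), a value whose sign turned by listed totals and in several other settings. Full amino acid starvation gave 2.18-fold (interval 0.955 to 4.96, edgeR adjusted p = 0.649), a log2 fold change of 1.12 that was 2.01 without NT replicate 1, which held 6 of the 7 NT counts, and 0.58 without full amino acid starvation replicate 2. Without NT replicate 1 that of cysteine starvation was 0.87. No transcript of the 1399, or 0%, was called by edgeR in either starvation against NT; an unadjusted p under 0.05 was reached by 230 transcripts for cysteine and 109 for full amino acid starvation, DESeq2 called 60 and 0, and limma 5 and 14.

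Against NT2 in place of NT, full amino acid starvation held less Prdx1 (log2 fold change -1.51, edgeR adjusted p = 0.0411) and more Abcc1 (1.75, edgeR adjusted p = 0.0031), where 459 transcripts were called. NT2 belongs to the other experiment as the names read, so starvation and experiment cannot be told apart in that setting. Over all alternatives the adjusted p for Prdx1 ran from 0.0411 to 0.984 and that for Abcc1 from 0.0031 to 0.984. Within the libraries of full amino acid starvation the ratio of Prdx1 to Abcc1 was 0.500 and 0.182, against 1.17 and 3.0 in NT, and the ratio of group ratios was 0.187 with a counting interval of 0.0324 to 0.980. Every one of the 4 libraries behind it held 11 counts or fewer of each gene. Cysteine starvation against full amino acid starvation gave 1.57-fold for Prdx1 (interval 0.583 to 4.24, edgeR adjusted p = 0.628) and 0.454-fold for Abcc1 (interval 0.237 to 0.869, edgeR adjusted p = 0.110). By listed totals the log2 fold change was 1.68 for Prdx1, against 0.65 by TMM, and -0.097 for Abcc1, against -1.14 by TMM, and neither passed. In that comparison 2.57% of transcripts were called higher and 12.4% lower by TMM, 36 and 174 in number, while by listed totals 474 were higher and 74 lower.

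Other NRF2 targets were read from a list of 60, of which 6 were measured. Besides the pair these were Sqstm1, Fth1, Aox1 and Abcc5, and all 4 stood above 0 with cysteamine against NT2, with a median log2 fold change of 1.20, where that of all transcripts was 0.13. Sqstm1, the autophagy receptor p62 that also binds KEAP1, rose with cysteamine to 795 and 725 CPM, against 368 and 281 CPM in NT2 (log2 fold change 1.21 ± 0.25, edgeR adjusted p = 0.00518). Fth1, the heavy chain of the iron store ferritin, rose with cysteamine to 2274 and 2446 CPM, against 1180 and 896 CPM in NT2 (1.18 ± 0.22, edgeR adjusted p = 0.00365). The libraries of neither gene overlapped. By listed totals both stayed above 0 but lost the call (adjusted p = 0.0627 for Sqstm1 and 0.101 for Fth1), whereas Prdx1 and Abcc1 kept theirs. Aox1, an aldehyde oxidase, stood at 1.25 ± 0.48 (adjusted p = 0.112) and Abcc5, a cyclic nucleotide exporter, at 0.39 ± 0.50 (0.641) in the same edgeR test.

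In the transfected cells the same 4 targets also stood above 0, though not the same ones passed. Their median log2 fold change against NT2 was 1.73 in the knockdown and 1.62 in the rescue. That of all transcripts was 0.092 in the knockdown and -0.0055 in the rescue. Sqstm1 rose in the knockdown (2.24 ± 0.24, edgeR adjusted p = 2.2e-05) and in the rescue (1.75 ± 0.25, edgeR adjusted p = 0.000124), each against NT2. Fth1 passed in neither, at 0.24 in the knockdown (adjusted p = 0.453) and 0.54 in the rescue (0.0886) by edgeR. Aox1 rose in both, by 2.50 in the knockdown and 2.92 in the rescue on the log2 scale, and Abcc5 in the rescue (1.49 ± 0.50, edgeR adjusted p = 0.0322). Aox1 and Abcc5 belong to the 341 transcripts high in NT relative to NT2, a class whose definition favours rises against NT2, and Prdx1, Abcc1, Sqstm1 and Fth1 do not. Outside that class Sqstm1 passed in the knockdown, Sqstm1 and Abcc1 did so in the rescue, and Sqstm1, Fth1, Prdx1 and Abcc1 with cysteamine. That tally includes the pair, picked with earlier results known, and rests on a class chosen after the data were seen. With the class kept and the pair set aside, 3 of 4 targets were called higher for the rescue, 2 for the knockdown and 2 for cysteamine. The matching shares of all transcripts were 18.7%, 17.6% and 5.50%. These counts thus show no pattern particular to cysteamine.

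NRF2 is held in check by a ubiquitin ligase built on the scaffold Cul3. Cul3 stood at 0.096 ± 0.31 with cysteamine against NT2 (edgeR adjusted p = 0.862, and -0.056 by listed totals), and fell in the rescue (-1.18 ± 0.42, edgeR adjusted p = 0.0341). Sqstm1 and Cul3 were the measured genes of 11 that control NRF2, and the transcripts of NRF2 and KEAP1 were not analysed here.

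Peroxiredoxins work within a family of thiol enzymes, and of 29 genes for peroxiredoxins, thioredoxins and disulfide isomerases 5 were measured. Prdx1 was the peroxiredoxin among them. The others, P4hb, Pdia3, Pdia4 and Pdia6, encode disulfide isomerases that form and rearrange disulfide bonds of proteins in the endoplasmic reticulum. With cysteamine 3 of these 4 fell against NT2 and 0 rose, with a median log2 fold change of -0.79. Pdia4 had 165 and 209 CPM with cysteamine, against 443 and 489 CPM in NT2 (-1.30 ± 0.21, edgeR adjusted p = 0.0012). Pdia6 stood at -0.98 ± 0.21 (adjusted p = 0.00588), Pdia3 at -0.61 ± 0.18 (0.0376) and P4hb at -0.41 ± 0.23 (0.250) in the same test, and 5.0% of all transcripts were called lower. All 4 were below 0 under each of the 3 scalings, and Pdia3 lost its call by listed totals (adjusted p = 0.0653). In the thiol enzyme list, then, the cytosolic peroxidase rose with cysteamine while 3 isomerases of the endoplasmic reticulum fell. In the rescue Pdia3 (-0.84 ± 0.21, edgeR adjusted p = 0.00568) and Pdia4 (-0.98 ± 0.24, edgeR adjusted p = 0.00457) fell against NT2, and in the knockdown P4hb did (-0.66, edgeR adjusted p = 0.0439). Among all transcripts 12.9% were called lower in the rescue and 13.2% in the knockdown. By listed totals P4hb in the knockdown lost its call (adjusted p = 0.129) and Pdia4 gained one (-0.73, adjusted p = 0.0394), while in the rescue Pdia6 gained one (-0.86, adjusted p = 0.0255).

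Of 32 genes of glutathione and antioxidant enzymes, Sod1 and Gpx4 were measured. Sod1, the cytosolic superoxide dismutase, had 390 and 325 CPM with cysteamine, against 230 and 213 CPM in NT2. The groups did not overlap, and the difference did not pass (0.68 ± 0.23, edgeR adjusted p = 0.0704). Gpx4, the glutathione peroxidase that removes lipid peroxides and restrains ferroptosis, stood at -0.12 ± 0.26 (edgeR adjusted p = 0.791).

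Abcc1 belongs to the ATP-binding cassette family, of which 6 members were measured. With cysteamine against NT2 Abcc1 was the 1 of them to pass, where 5.50% of all transcripts were called higher. The lipid exporter Abca1 stood at -0.44 (adjusted p = 0.293), the skin lipid transporter Abca12 at 1.22 ± 0.41 (0.0612), Abca16 at 1.37 ± 0.65 (0.187) and Abcf2 at 0.22 ± 0.18 (0.426), all by edgeR. In the knockdown Abca12 (2.81) and Abca16 (2.70) rose on the log2 scale, and in the rescue Abca12 (2.93), Abca16 (3.21) and Abcc5 did, beside Abcc1. The shares of all transcripts called higher were 17.6% in the knockdown and 18.7% in the rescue. Abca12, Abca16 and Abcc5, unlike Abcc1, belong to the class high in NT.

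Counted over all 15 list genes other than the pair, 2 rose and 3 fell with cysteamine, 4 rose and 1 fell in the knockdown, and 5 rose and 3 fell in the rescue, each against NT2. Over all transcripts the shares called higher and lower were 5.50% and 5.0% with cysteamine, 17.6% and 13.2% in the knockdown, and 18.7% and 12.9% in the rescue. With so few genes these counts are descriptions and show nothing particular to the lists. The rescue against the knockdown gave 0 in either direction, and so did both starvations against NT. By listed totals 0 rose and 2 fell with cysteamine, where 32 transcripts of all were called higher and 61 lower. With the class high in NT left out, 3 of 11 rose and 4 fell with cysteamine, where 168 were called higher and 159 lower.

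**Figure D4:**
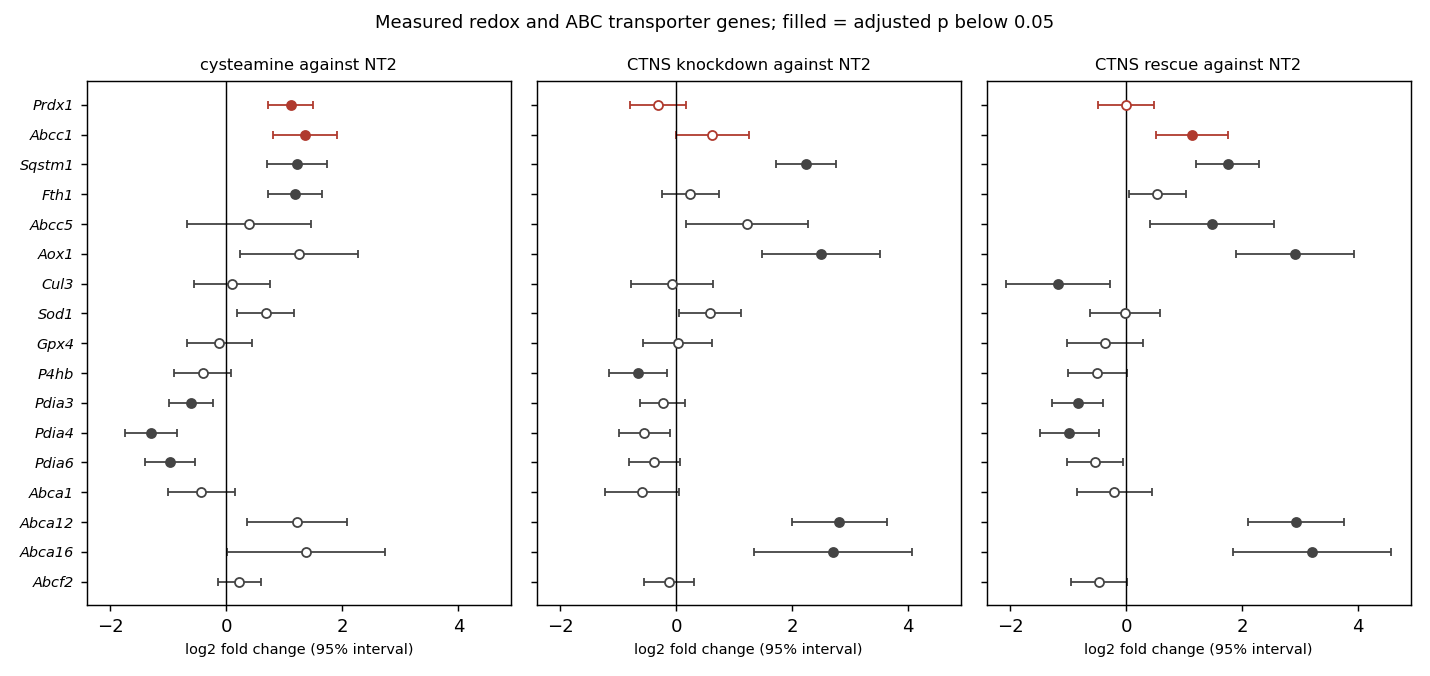
Log2 fold change against NT2 of Prdx1, Abcc1 and the 15 other measured genes of the redox and transporter lists, for cysteamine, CTNS knockdown and CTNS rescue; filled points passed an adjusted p of 0.05 by edgeR. With cysteamine Prdx1, Abcc1, Sqstm1 and Fth1 lie between 1.11 and 1.35 and Pdia3, Pdia4 and Pdia6 between -1.30 and -0.61.

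The genes that share TGACTCAGC with Prdx1 were looked up in the same fit. Of the 7 others whose sites are printed above, 0 were called with cysteamine against NT2, where 5.50% of all transcripts were called higher and 5.0% lower; 3 stood above 0 and the median log2 fold change was -0.039. Met, which encodes the receptor of hepatocyte growth factor, was the 1 called in the transfected cells against NT2, where it fell in the knockdown (-1.21, edgeR adjusted p = 0.00308) and in the rescue (-1.66, edgeR adjusted p = 0.000649). That is 1 of 7 in each, where 13.2% of all transcripts were called lower in the knockdown and 12.9% in the rescue. With cysteamine against the knockdown Met (0.89, edgeR adjusted p = 0.028) and C1qbp, a mitochondrial protein gene (1.02, edgeR adjusted p = 0.0336), were higher, as were Met (1.34, edgeR adjusted p = 0.00504) and C1qbp (1.30, edgeR adjusted p = 0.0141) with cysteamine against the rescue. So 2 of the 7 were called higher in each of these, where 14.7% and 14.8% of all transcripts were, and Prdx1 was too. Among the list genes the general element TGACNNNGC was also found before Pdia3, as TGACGCAGC, and before Sod1, as TGACCACGC, while Aox1 held TGACTCA. The 16 list genes with a promoter thus held the general element in 3 cases, Prdx1 included, where 154 of 1084 measured genes (14.2%) held it.

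The transcripts whose pattern was most like that of each gene were ranked by Pearson's r of log2 CPM over the 14 libraries, with the mean of each experiment subtracted, among 896 transcripts with a mean count of at least 20. Libraries, depth and makeup are shared by all points. For Prdx1 the first 5 were Prep (0.877), a cytosolic peptidase, Dis3 (0.823), an exosome ribonuclease, Npm1 (0.814), a nucleolar chaperone, Eif4a1 (0.784), a translation initiation helicase, and Tcof1 (0.782), a nucleolar factor of ribosome synthesis. For Abcc1 they were Sf3b3 (0.780), a splicing factor, mt-Nd5 (0.762), a subunit of respiratory complex I, Sdc4 (0.755), a heparan sulfate proteoglycan, Rpl37a (0.754), a ribosomal protein, and Pkm (0.710), a pyruvate kinase. The lists shared no transcript. Since these transcripts were picked over libraries that include cysteamine and NT2, their fold changes are descriptions: with cysteamine against NT2 they ran from 0.28 for Prep to 1.07 for Dis3 and Npm1 in the first list, and from 0.37 for Sdc4 to 0.85 for Sf3b3 in the second (log2). Prdx1 and Abcc1 themselves had an r of -0.091 with each other over the 14 libraries, 0.614 over the 8 libraries with NT2 and -0.884 over the 6 of the starvation experiment, where each gene had 1 to 11 counts a library. Fth1 had an r of 0.480 with Prdx1 and 0.125 with Abcc1 over the 14 libraries. Its r was 0.772 with Prdx1 and 0.880 with Abcc1 over the 8, and 0.279 and -0.327 over the 6. Other list genes went the opposite way over the 8, as Pdia4 did (-0.618 with Prdx1 and -0.948 with Abcc1).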

How the data were processed

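Per the labels' protocols, polyadenylated RNA was size-selected on a gel at 50-100 nt before cDNA synthesis and PCR. The authors deposited 1 table per library with a whole number, read here as a count, for each Ensembl transcript. The tables are named as CPM, but the values are whole and their totals differ between libraries, so they were taken as raw counts; the labels do not state the unit, and every count, counting interval and edgeR test rests on that reading. Every listed transcript had a count of at least 1 in each library, so totals are not depths and a loss to 0 cannot be seen. Named in the submitters' processing notes, without roles, are STAR 2.7.10a, Bowtie 1.2.3, cutadapt 2.8, bcl2fastq 2.20.0.422 and GRCm39; which tool counted, with which annotation and strand setting, is not given in the sources used here. Reads of other transcripts of the same gene may have been split off or counted under the listed transcript. Symbols came from GENCODE M21 and matched 1385 transcripts, 14 not; promoters came from RefSeq (16 of 17 list genes). Libraries were grouped by their labels. edgeR 4.0.16 (R 4.3.3) fitted 7 group means to all 14 libraries after TMM scaling, two-sided, and p-values were adjusted by Benjamini-Hochberg over 1399 transcripts with a threshold of 0.05. Log2 CPM for the correlations used a prior count of 2. SEs and 95% intervals of folds came from the same fit, and intervals of count ratios are exact and cover counting error only. The fit was tested on simulated data. Alternatives were DESeq2 1.42.0, limma 3.58.1, other scalings, a mean count of 20 and each experiment alone. A replicate block, the other untreated group and each library left out were run too. Another, chosen after seeing the data, left out 341 transcripts. Their summed counts in NT over those in NT2 were above 2 times the median of that ratio over all transcripts. The genes named are the pair, every measured gene of the lists, the 5 most alike in pattern and the element genes. The members and lists were chosen with earlier results of these data known.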

Additional observations from a re-analysis of the deposited data

How the results depend on the processing

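Of the fold changes of Prdx1 and Abcc1 recomputed under the alternatives, 193 kept their direction and their side of the threshold, 12 changed sign, 14 lost a call and 7 gained one. None of the values that changed sign passed the test on either side. Scaled by listed totals, Prdx1 was 0.050 in cysteine starvation against NT and -0.32 in the rescue against NT2, and Abcc1 was 0.65 in cysteine starvation against NT. Abcc1 in cysteine starvation was 0.28 by limma and 0.61 with NT2 as the control, and ran from -0.26 to 0.87 with 1 library left out. Abcc1 in the knockdown was -0.0083 with NT as the control. Prdx1 in the rescue against NT2 was -0.093 with its experiment alone and ran from -0.26 to 0.25 with 1 library left out.

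The rise with cysteamine against NT2 stayed above 0 in every alternative run, from 0.95 to 1.33 for Prdx1 and from 0.72 to 1.55 for Abcc1 (log2 fold change). With 1 library left out it ran from 1.04 to 1.16 for Prdx1 and from 1.19 to 1.55 for Abcc1. It did not pass by limma (1.06 for Prdx1 and 1.25 for Abcc1), nor for Abcc1 with NT as the control (0.72). Calls of both genes were also lost in the fits with 1 library left out that are named above. Abcc1 in the rescue against NT2 did not pass by listed totals (0.81), by limma (1.05) or with NT as the control (0.50). It ran from 0.98 to 1.34 with 1 library left out, where the losses of the call named above also fell. Prdx1 did not pass by limma with cysteamine against the knockdown (1.39) or the rescue (1.05). Calls were gained in full amino acid starvation with NT2 as the control (-1.51 for Prdx1 and 1.75 for Abcc1). Abcc1 gained a call in the knockdown against NT2 with a mean count of at least 20 (0.72) or the class high in NT left out (0.74). It also gained one with cysteamine against the knockdown, with a mean count of at least 20 (0.62), with the replicate block (0.73) and with its experiment alone (0.78). The causes were not tested.

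With the replicate number as a block, cysteamine against NT2 gave 1.10 for Prdx1 and 1.35 for Abcc1, and Prdx1 in the rescue against NT2 gave -0.00020; apart from Abcc1 with cysteamine against the knockdown no call of the pair changed. The block moved the calls over all transcripts to 269, against 147, with cysteamine and to 80, against 0, in cysteine starvation. Same-numbered libraries deviated together with r between -0.21 and 0.29 in the starvation experiment and between 0.092 and 0.28 in the other, so the numbers were not taken to pair libraries.

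Numbers of transcripts called moved more than the pair did. With cysteamine against NT2 there were 147 in the main fit (77 higher, 70 lower), 93 by listed totals (32 higher, 61 lower), 0 by limma, 375 with its experiment alone, 327 without the class high in NT, 356 with NT as the control and 15 to 32 with 1 library left out. The knockdown against NT2 gave 431, 114 by limma, 203 with NT and 191 to 237 with 1 left out. The rescue against NT2 gave 441, 145 by limma, 155 with NT, 287 without the class and 257 to 287 with 1 left out. The rescue against the knockdown gave 9, and 1 to 58 in the alternatives. Cysteamine gave 346 against the knockdown, with 4 by limma, 529 with its experiment alone and 67 to 127 with 1 left out. Against the rescue it gave 425, with 37 by limma and 175 to 234 with 1 left out. Cysteine starvation against NT gave 0 to 248, full amino acid starvation 0 to 459, and the one against the other 18 to 548. Scaling by listed totals moved the median of all transcripts by over 0.1: to 0.70 for cysteine starvation and -0.31 for full amino acid starvation against NT, 1.09 between them, -0.024 for cysteamine, -0.083 for the knockdown and -0.33 for the rescue against NT2, -0.14 in the rescue against the knockdown and 0.17 with cysteamine against the rescue. A scaling shifts all transcripts nearly alike; relative to the median, Prdx1 stood at 0.98 and Abcc1 at 1.22 with cysteamine. The starvation values rest on low counts, where a library held 1 to 11 of either gene and replicates differed by 4.15 to 7.38 times counting noise.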
